A study of Arabidopsis thaliana with 13 samples.

Results

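On the Affymetrix ATH1 array, 29 of 22746 non-control probe sets (0.127%) gave a signal near background in Arabidopsis roots of the Ler accession and a clear signal in roots of the Col-0 accession. They were chosen from the measured values: a mean signal under 50 in both Ler and clv1-15, and of at least 300 in Col-0 and in each of the CLE3ox lines 12-1 and 17-3. The platform's probe table gave exactly 1 gene for 20 of them and no gene for the other 9, which are reported by probe set ID. Signal means the deposited MAS5 intensity, a linear value in arbitrary units.

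The arrays held whole-root RNA of 10-day-old plants. Lines 12-1 and 17-3 overexpress the peptide gene CLE3 in Col-0 (n = 2 arrays each), and Col-0 is their wild type (n = 3). The mutant clv1-15 carries a mutation in the receptor kinase gene CLV1 in Ler (n = 3), and Ler is its wild type (n = 3). All plants grew on MGRL agar with 0.1 mM KNO3 and 1% sucrose, at 22 °C with 16 h of light and 8 h of dark. The labels call the arrays of a group biological replicates but name neither separate cultures or days nor the promoter that drives CLE3. Where such replicates shared a culture, p-values measure a spread that may be partly technical.

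Col-0 and Ler are laboratory accessions, inbred lines whose genomes differ by many base changes, insertions and deletions. Genes of defence chemistry, such as those for terpenes, glucosinolates and oxidised indole compounds, are known to vary between accessions in presence and in expression. ATH1 probes are short oligonucleotides designed on Col-0 sequence, so a low signal in Ler can come from little transcript or from a poor match between probe and transcript. In whole-root RNA, fewer cells of a type and less RNA per cell cannot be told apart.

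In the Ler-background roots the signals lay at the level of the background or somewhat above it. On each array, 27 control probe sets match transcripts of the bacterial genes dap, lys, phe, thr and trp. Their signals on all 13 arrays ran between 0.3 and 26.2, with a median of 4.0. Other bacterial controls are not among these 27, such as the spike-in bioD, with 2700.2 on clv1-15 array 3. The term bacterial controls is used here for these 27 alone. The 29 probe sets had signals between 0.8 and 60.4 on the 6 arrays of clv1-15 and Ler, with a median of 22.9. Of those 174 values, 96 were at or below 24.3, the highest value of the 27 controls on these 6 arrays. For 9 probe sets all 6 values were at or below it, and for 14 the mean lay above it, so "near background" covers levels a little above the bacterial controls too. On the 7 Col-0-background arrays the signals ran between 296.8 and 3736.6, with a median of 556.1.

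Of 23 markers listed for a tissue check, 7 had a probe set with exactly 1 gene in the platform's table, 5 of root and 2 of shoot. The other markers were not looked up among the remaining probe sets. The 5 root markers were well above background on every array. Among them, EXPA7, a root hair expansin, averaged 1510.2 in line 12-1, 1244.9 in line 17-3 and 1709.3 in Col-0, against 954.1 in clv1-15 and 804.9 in Ler. The expansin EXPA18 averaged 1781.2 in line 12-1, 1493.3 in line 17-3 and 1979.7 in Col-0, against 1287.7 in clv1-15 and 805.0 in Ler. The cortex marker AT1G09750 averaged 770.1 in Col-0 and 567.2 in Ler. Other root markers ran the other way between the wild types. The phloem gene SWEET11 averaged 316.9 in Col-0 and 532.5 in Ler, with 195.1 in clv1-15. The root beta-glucosidase PYK10 averaged 16515.3 in Col-0 and 19611.1 in Ler, and had at least 15777.8 on every array. The summed signal of 2 photosynthesis genes, LHCB4.1 and RCA, was 673.8 to 1022.9 on the Col-0-background arrays and 912.0 to 1579.5 on the Ler-background arrays. The 2 genes differed: LHCB4.1 averaged 392.8 in Col-0, 379.5 in Ler and 514.7 in clv1-15. RCA averaged 337.7 in Col-0, 716.7 in Ler and 1005.3 in clv1-15. The part of shoot RNA in the results was not tested.

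Since the rule used the group means of these same signals, the gap between the backgrounds is a description of the choice. Every Col-0-background array lay above every Ler-background array at each of the 29 probe sets. At 21 of them every array lay on its own side of the limits of 50 and 300. Within Col-0 the arrays differed little, with a median coefficient of variation of 8.9% (range 1.2% to 16.9%). Applying the rule to 12 arrays at a time chose 28 or 29 probe sets. The array left out then fell on its side of the limits in 95.7% of 375 cases. The 16 exceptions lay close to a limit, at most 64.4 in the Ler background and at least 296.8 in the Col-0 background.

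**Figure D1:**
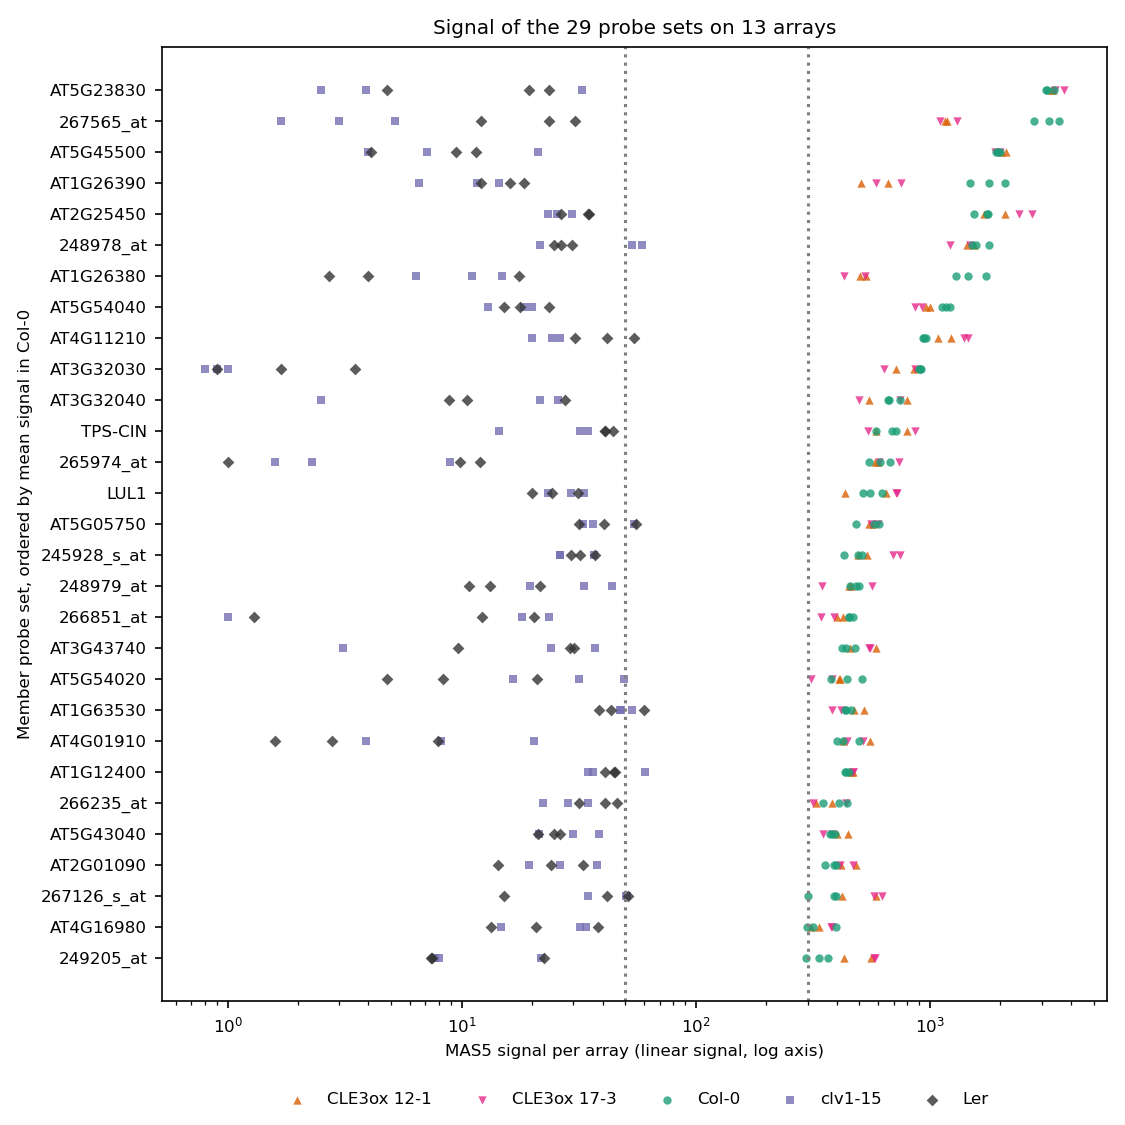
MAS5 signal (log axis) of each of the 29 probe sets on each of the 13 arrays, 1 row per probe set and 1 point per array. Dotted lines mark 50 and 300, and the Col-0-background points (12-1, 17-3 and Col-0) lie right of every Ler-background point (clv1-15 and Ler) in each row.

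The limma test of Col-0 against Ler called all 29 higher in Col-0 at an adjusted p under 0.05, by 2.87 to 6.72 on the log2(signal + 16) scale. Of all tested probe sets, 45.3% were called in this comparison and 20.9% were called higher in Col-0. The rule used this contrast, so nothing is read from that count. The opposite rule, a mean under 50 in the 3 Col-0-background groups and of at least 300 in clv1-15 and Ler, found 7 probe sets.

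**Figure D2:**
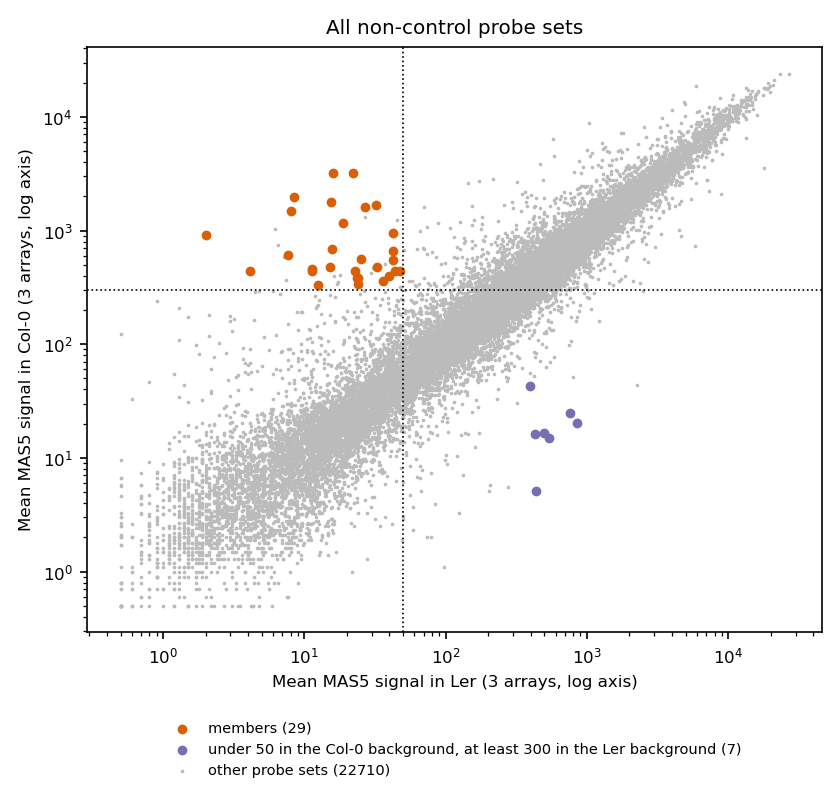
Mean MAS5 signal of every non-control probe set in Col-0 (vertical, 3 arrays) against Ler (horizontal, 3 arrays), both on log axes, with dotted lines at 300 and 50. The 29 chosen probe sets are orange, the 7 of the opposite rule are purple, and grey points in the upper left fail a limit in clv1-15 or in a CLE3ox line.

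Some of the genes are given by family, a grouping made after the values were seen. The shares of these families among all probe sets were not computed, so nothing is read from the family counts. Terpene and prenyl diphosphate synthesis gave 3 genes, whose arrays ran between 500.0 and 918.4 in the Col-0 background and between 0.8 and 44.5 in the Ler background. TPS-CIN makes the monoterpene 1,8-cineole in roots. Its signal was 587.2 and 798.1 in line 12-1, 541.2 and 860.9 in line 17-3, and 590.1, 686.9 and 717.8 in Col-0. The clv1-15 arrays gave 31.9, 14.5 and 34.6, and the Ler arrays 44.5, 40.8 and 41.0. Both lines spanned the Col-0 values, and every Ler array lay above every clv1-15 array, close to background. The difference between clv1-15 and Ler did not pass the test (limma log2 -0.47 ± 0.19 SE, adjusted p = 0.11). A near-identical copy of TPS-CIN lies beside it in the genome, so the signal may come from either gene.

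AT3G32030, a terpene synthase family gene, and AT3G32040, a prenyl diphosphate synthase family gene that would supply substrates to such enzymes, are neighbours on chromosome 3. AT3G32030 had 852.9 and 714.2 in line 12-1, 860.7 and 635.3 in line 17-3, and 904.6, 918.4 and 897.4 in Col-0. It had 0.9, 1.0 and 0.8 in clv1-15 and 3.5, 1.7 and 0.9 in Ler. All 6 values were within the range of the bacterial controls. Its probe set carries the suffix that marks a match to more than 1 transcript. AT3G32040 had 800.7 and 547.4 in line 12-1, 747.7 and 500.0 in line 17-3, and 671.2, 661.1 and 746.8 in Col-0. In clv1-15 it had 2.5, 25.8 and 21.5, and in Ler 8.8, 27.6 and 10.5. The 2 wild types were separated, while clv1-15 and Ler overlapped.

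The berberine bridge enzyme-like oxidases are flavin enzymes of the secretory pathway. Of this family the set held AT1G26380, known as FOX1, an oxidase of the cyanogenic indole pathway in pathogen defence, and its neighbour AT1G26390. AT1G26380 had 531.6 and 504.7 in line 12-1, 526.8 and 427.4 in line 17-3, and 1293.4, 1459.4 and 1729.7 in Col-0. It had 6.4, 11.1 and 14.8 in clv1-15 and 2.7, 17.6 and 4.0 in Ler. AT1G26380 thus had 3 levels: near background in the Ler background, intermediate in both CLE3ox lines and high in Col-0. AT1G26390 had 663.6 and 509.4 in line 12-1, 749.4 and 589.9 in line 17-3, and 1479.4, 2082.5 and 1783.8 in Col-0. It had 11.6, 14.5 and 6.6 in clv1-15 and 18.4, 12.1 and 16.1 in Ler. The order of the groups was that of AT1G26380, with no overlap between the lines and Col-0.

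Proteins with cysteine- and histidine-rich C1 domains, a large plant family of mostly unknown function, gave 4 genes. AT5G54040 had 996.0 and 961.8 in line 12-1, 858.8 and 922.5 in line 17-3, and 1218.2, 1125.8 and 1169.0 in Col-0. It had 18.4, 12.9 and 20.0 in clv1-15 and 23.5, 17.7 and 15.1 in Ler. All 4 CLE3ox arrays lay below all 3 Col-0 arrays, a difference that did not pass the test (limma log2 -0.32 ± 0.11 SE, adjusted p = 0.15). AT5G54020 had 407.2 and 412.5 in line 12-1, 380.8 and 311.1 in line 17-3, and 444.1, 378.0 and 510.7 in Col-0. In clv1-15 it had 16.6, 49.5 and 31.7, against 4.8, 8.3 and 20.9 in Ler. The ranges of clv1-15 and Ler overlapped.

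AT4G01910 had 555.8 and 424.7 in line 12-1, 517.1 and 443.7 in line 17-3, and 496.8, 425.2 and 400.4 in Col-0. It had 20.3, 3.9 and 8.2 in clv1-15 and 2.8, 1.6 and 7.9 in Ler. All 6 of its Ler-background values lay within the bacterial control range. AT5G43040 had 447.5 and 400.7 in line 12-1, 350.4 and 381.4 in line 17-3, and 394.7, 372.8 and 382.9 in Col-0. It had 29.8, 38.6 and 21.4 in clv1-15 and 21.1, 24.9 and 26.2 in Ler. Line 12-1 lay above Col-0, a difference that did not pass the test (limma log2 0.14 ± 0.15 SE, adjusted p = 0.89). Line 17-3 overlapped Col-0, and clv1-15 overlapped Ler.

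AT2G25450 encodes GSL-OH, a dioxygenase that hydroxylates butenyl glucosinolate, one of the mustard oil precursors. Its signal was 1697.3 and 2091.7 in line 12-1, 2399.3 and 2715.5 in line 17-3, and 1770.5, 1548.2 and 1751.1 in Col-0. It was 23.3, 25.6 and 29.6 in clv1-15 and 34.5, 35.0 and 26.6 in Ler. Line 17-3 lay above every Col-0 array and line 12-1 overlapped Col-0. AOP3, a dioxygenase of the same glucosinolate pathway that is not among the 29, ran the other way. It averaged 20.3 in Col-0 and 852.0 in Ler (limma log2 -4.68, adjusted p = 1.9e-08), and was 1 of the 7 probe sets of the opposite rule. Of a list of genes known to differ between accessions, 3 had a probe set with exactly 1 gene in the platform's table. AOP3 was the 1 that entered the test.

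AT5G23830 encodes a protein with an MD-2-related lipid recognition domain. It had 3272.1 and 3345.5 in line 12-1, 3402.3 and 3736.6 in line 17-3, and 3149.5, 3126.5 and 3388.3 in Col-0. It had 3.9, 32.6 and 2.5 in clv1-15 and 4.8, 23.5 and 19.4 in Ler. The mean was 3221.4 ± 145.0 in Col-0 and 15.9 ± 9.8 in Ler (SD, n = 3 each). AT5G45500, with leucine-rich-repeat-like structure, had 2004.3 and 2109.5 in line 12-1, 1988.0 and 1891.2 in line 17-3, and 1914.9, 1944.5 and 1999.9 in Col-0. It had 7.1, 21.1 and 4.0 in clv1-15 and 9.5, 11.5 and 4.1 in Ler. All 6 of its Ler-background values lay within the range of the bacterial controls.

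The dirigent-like gene AT4G11210 belongs to a family that guides the coupling of phenolic radicals in lignan and lignin formation. It had 1083.7 and 1224.6 in line 12-1, 1396.9 and 1458.3 in line 17-3, and 932.9, 947.3 and 958.9 in Col-0. It had 20.0, 24.3 and 26.2 in clv1-15 and 54.2, 30.5 and 41.7 in Ler. Both lines lay above Col-0 and clv1-15 lay below Ler, with no overlap in either pair. The rise in line 12-1 did not pass the test (limma log2 0.28 ± 0.14 SE, adjusted p = 0.64). The ubiquitin ligase gene LUL1 had 648.1 and 434.4 in line 12-1, 724.1 and 712.4 in line 17-3, and 553.9, 624.3 and 517.4 in Col-0. It had 23.3, 29.2 and 33.2 in clv1-15 and 31.5, 19.9 and 24.4 in Ler. Line 17-3 lay above Col-0, a difference that did not pass the test (limma log2 0.34 ± 0.17 SE, adjusted p = 0.34). Line 12-1 fell on both sides of Col-0.

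AT5G05750, which encodes a DnaJ-type chaperone, had 548.1 and 569.6 in line 12-1, 561.9 and 600.2 in line 17-3, and 578.5, 606.5 and 483.4 in Col-0. It had 54.4, 32.9 and 36.5 in clv1-15 and 40.7, 55.7 and 31.6 in Ler. Its groups overlapped within each accession background. AT1G63530, for which no role is given here, had 520.7 and 474.8 in line 12-1, 416.2 and 380.9 in line 17-3, and 461.6, 434.8 and 435.9 in Col-0. Its Ler-background arrays were less clearly low. They gave 47.5, 48.1 and 53.2 in clv1-15 and 43.3, 60.1 and 38.7 in Ler.

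A single arabinogalactan protein gene, AT4G16980, coding for a cell wall glycoprotein, had 309.0 and 335.8 in line 12-1, 379.6 and 381.3 in line 17-3, and 397.2, 297.9 and 316.3 in Col-0. It had 31.9, 14.7 and 34.0 in clv1-15 and 20.7, 13.3 and 38.3 in Ler. A second probe set of this gene, 245459_at, gave another picture. It averaged 7.0 in line 12-1, 8.8 in line 17-3 and 13.6 in Col-0, against 15.4 in clv1-15 and 15.2 in Ler, within the bacterial control range everywhere. The 2 probe sets of AT4G16980 therefore disagree on whether the gene gives a signal in Col-0 roots.

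The remaining 3 named genes are given by their ranges. AT1G12400, a small subunit of the transcription and repair factor TFIIH, ran between 432.8 and 470.8 in the Col-0 background and between 34.8 and 60.4 in the Ler background. AT2G01090, the hinge protein of mitochondrial complex III, ran between 355.9 and 482.2 against 14.3 and 38.0. The leucine-rich repeat gene AT3G43740 ran between 419.0 and 588.7 against 3.1 and 37.2. All 3 had non-overlapping backgrounds and overlapping groups within the Ler background.

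Of the 9 probe sets without a gene name, 267565_at is described because of its values. It had 1159.4 and 1178.8 in line 12-1, 1307.5 and 1106.0 in line 17-3, and 2793.9, 3548.6 and 3235.0 in Col-0. It had 1.7, 3.0 and 5.2 in clv1-15 and 30.6, 12.1 and 23.6 in Ler. Both lines lay below Col-0 and clv1-15 below Ler, without overlap. The other 8 ran between 296.8 and 1782.7 in the Col-0 background and between 1.0 and 58.9 in the Ler background.

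The set had no sharp edge at its lower limit. Just inside the lower limit, the lowest Col-0-background mean was 322.4 for AT4G16980, 332.3 for 249205_at and 346.0 for AT5G54020. Just outside it were AT4G03500 at 293.0, AT4G09420 at 269.6 and AT5G35450 at 268.2. These 3 were low in the Ler background as well, and missed the rule by a small margin.

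AT4G03500 had 311.6 and 287.3 in line 12-1, 305.1 and 280.9 in line 17-3, 349.0, 342.9 and 358.6 in Col-0, and 7.1 to 33.1 on the Ler-background arrays. AT4G09420 had 278.0 and 305.8 in line 12-1, 281.3 and 257.8 in line 17-3, 313.9, 360.7 and 339.2 in Col-0, and 14.9 to 29.6 on the Ler-background arrays. AT5G35450 had 285.3 and 301.7 in line 12-1, 261.8 and 318.3 in line 17-3, 258.0, 281.3 and 265.4 in Col-0, and 3.6 to 18.2 on the Ler-background arrays. Their backgrounds did not overlap either.

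At the upper limit, the higher of the clv1-15 and Ler means was 49.6 for AT1G63530, 45.1 for 267126_s_at and 44.6 for 248978_at, just inside. Just outside were 246807_at at 50.9, AT4G02540 at 52.9 and 252568_at at 55.2. AT4G02540 had 1135.6 to 1508.9 on the Col-0-background arrays, 60.2, 50.6 and 48.0 in clv1-15, and 23.9, 63.4 and 47.7 in Ler. Of the unnamed probe sets, 246807_at had 380.1 to 485.8 on the Col-0-background arrays and 12.4 to 64.4 on the Ler-background arrays. In 252568_at these ranges were 260.6 to 419.0 and 23.7 to 59.5. All 3 had backgrounds that did not overlap.

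Whether CLE3 overexpression changed these transcripts is not independent of the rule, which set the same lower limit for the lines and for Col-0. A transcript whose mean fell below that limit in either line, or lay below it in Col-0, was left out. AT1G26410, with means of 582.4 in Col-0, 193.0 in line 12-1 and 164.8 in line 17-3, was lost in this way. The counts and medians for the lines therefore describe the chosen probe sets only. Nothing is read from their difference to the shares of all tested probe sets. Against Col-0, 3 of the 29 fell in the CLE3ox lines, none rose and 26 did not pass the test. Of all tested probe sets 2.44% were called, 1.06% higher and 1.39% lower. The 3 were the oxidase genes AT1G26380 and AT1G26390 and the unnamed 267565_at. All 29 passed the filter on low values, through the groups where they are high. The median log2 difference was 0.04 over the 29 and 0.01 over all tested probe sets, and 9 of the 29 had an unadjusted p under 0.05. Without Ler array 2, which enters the shared estimate of spread, 6 were called.

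AT1G26390 was 2.79-fold lower in CLE3ox roots than in Col-0 (limma log2 -1.48 ± 0.15 SE, adjusted p = 3e-05). AT1G26380 was 2.93-fold lower (log2 -1.55 ± 0.18, adjusted p = 0.00017), and 267565_at was 2.66-fold lower (log2 -1.41 ± 0.15, adjusted p = 4.1e-05). All 4 CLE3ox arrays lay below all 3 Col-0 arrays in each case. With a pseudocount of 1 in place of 16, the adjusted p of AT1G26380 was 0.053.

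Each line showed the fall separately, against the same 3 Col-0 arrays. In line 12-1, 3 of the 29 were called, against 0.433% of all tested probe sets (0.0879% higher and 0.345% lower). They were AT1G26390 (limma log2 -1.58, adjusted p = 0.00026), AT1G26380 (log2 -1.49, adjusted p = 0.0027) and 267565_at (log2 -1.43, adjusted p = 5e-04). Without array 2 of line 12-1 the adjusted p of AT1G26380 was 0.078. With a pseudocount of 1, AT1G26390 alone was called.

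In line 17-3, 6 of the 29 were called, against 3.32% of all tested probe sets. AT1G26390 (limma log2 -1.39, adjusted p = 0.00032), AT1G26380 (log2 -1.61, adjusted p = 0.00051) and 267565_at (log2 -1.39, adjusted p = 0.00028) fell. Over all tested probe sets 1.65% fell and 1.67% rose. The 3 that rose were AT2G25450 by 0.59 ± 0.12 SE (adjusted p = 0.013), AT4G11210 by 0.58 ± 0.14 (adjusted p = 0.033) and 245928_s_at by 0.58 ± 0.14 (adjusted p = 0.026), all on the limma log2 scale. All 3 lost the call without array 2 of line 17-3 (adjusted p of 0.18, 0.22 and 0.22) and without array 2 of Col-0 (0.058, 0.077 and 0.058). AT4G11210 and 245928_s_at lost it as well without array 1 of line 17-3 (0.1 and 0.08) and without array 3 of Col-0 (0.084 and 0.11), and AT4G11210 without array 1 of Col-0 (0.1). With no filter on low values the adjusted p was 0.066 for AT4G11210 and 0.054 for 245928_s_at. With a pseudocount of 1 the limma adjusted p was 0.084 for AT1G26380, 0.1 for AT4G11210 and 0.071 for 245928_s_at.

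Line 17-3 and line 12-1 were not shown to differ at any of the 29 (limma, 0 called, 3 with an unadjusted p under 0.05), where 0.264% of all tested probe sets were called (0.22% higher and 0.044% lower). AT2G25450 stood 0.43 ± 0.14 higher in line 17-3 than in line 12-1 on the log2 scale, and 245928_s_at 0.48 ± 0.15 higher, with adjusted p-values of 0.36 and 0.35. The rises named for line 17-3 are therefore not shown to be particular to that line.

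**Figure D3:**
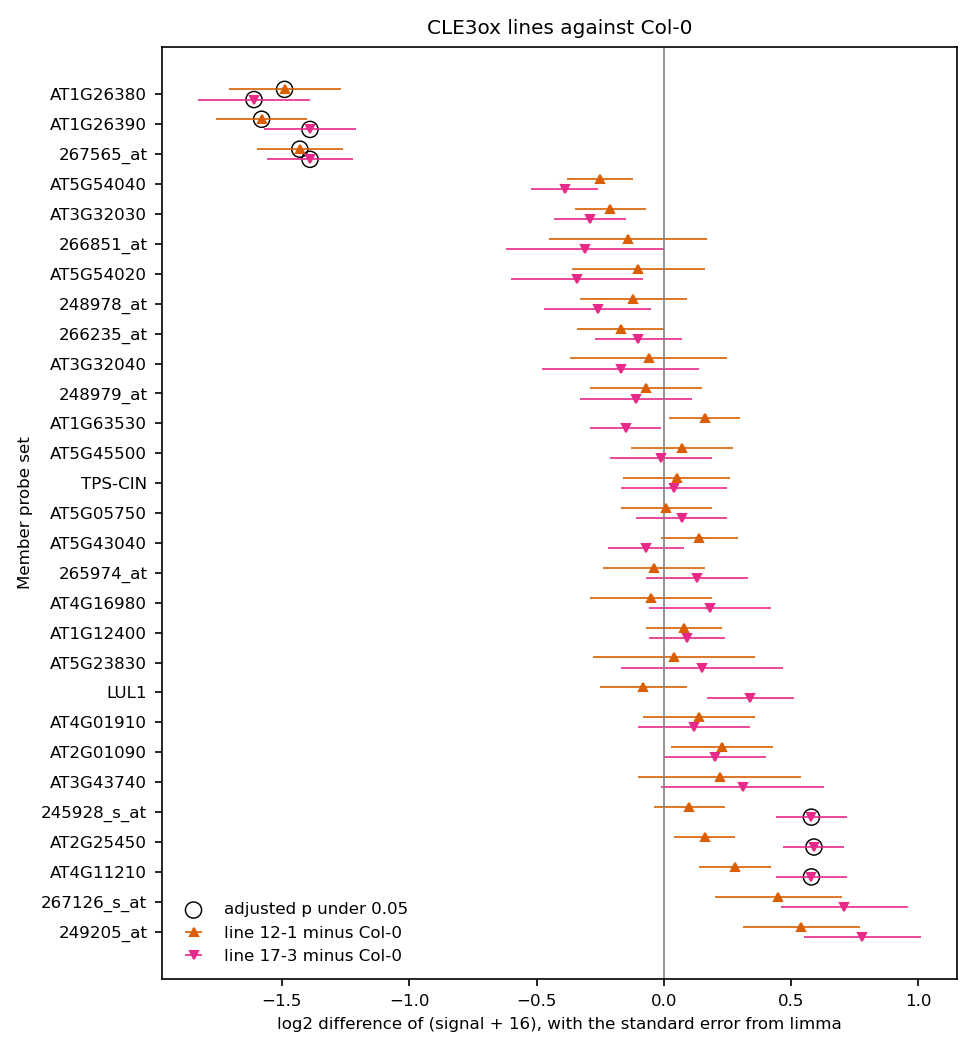
log2 difference of (signal + 16) for lines 12-1 and 17-3, each minus Col-0, for the 29 probe sets, with bars for the limma standard error and rings where the adjusted p is under 0.05. AT1G26380, AT1G26390 and 267565_at lie between -1.61 and -1.39 in both lines, and the other points lie between -0.39 and 0.78.

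The rule required a mean under 50 in clv1-15 and in Ler alike, so low signals in clv1-15 are no result. The rule fixed no direction between the mutant and Ler, but it held both means under 50. Against Ler, 4 of the 29 were called, where 15.3% of all tested probe sets were called. The 29 passed the filter through the Col-0-background arrays, and the other tested probe sets were not held to a limit. Nothing is read from the difference between these shares. Higher in clv1-15 were AT5G54020 (limma log2 0.82 ± 0.23 SE, adjusted p = 0.027) and 248979_at (log2 0.61 ± 0.20, adjusted p = 0.046). Lower were AT4G11210 (log2 -0.54 ± 0.13, adjusted p = 0.011) and 267565_at (log2 -0.95 ± 0.16, adjusted p = 0.00088). Over all tested probe sets 6.88% were higher and 8.4% lower. All 4 differences lie between signals under 60, close to the bacterial controls, and their sizes depend on the pseudocount. With pseudocounts of 64 and 1, the log2 difference was 0.35 and 1.54 for AT5G54020, 0.27 and 1.02 for 248979_at, -0.27 and -0.79 for AT4G11210 and -0.35 and -2.42 for 267565_at. Fitted on the clv1-15 and Ler arrays alone, the limma adjusted p was 0.089 for AT5G54020, 0.12 for 248979_at and 0.098 for AT4G11210. The calls of AT5G54020 and 248979_at were both lost without clv1-15 array 2 (adjusted p of 0.12 each), without clv1-15 array 3 (0.065 and 0.17) and without Ler array 1 (0.12 each). AT5G54020 also lost its call without Ler array 2 (0.079), and 248979_at without Ler array 3 (0.14). For 248979_at the adjusted p was 0.056 to 0.061 without any 1 of the 3 Col-0 or the 2 line 12-1 arrays.

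The 20 named genes were spread over all 5 chromosomes, with 4, 2, 4, 3 and 7 on chromosomes 1 to 5. Chromosome 5 held 35.0% of them and 22.4% of all single-gene probe sets. There were 2 pairs of adjacent genes, AT1G26380 with AT1G26390 and AT3G32030 with AT3G32040, counted over protein-coding genes of the TAIR10.1 annotation.

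Neighbouring genes were not used by the rule and were tested for Col-0 against Ler. Within 2 protein-coding genes on either side, 30 other single-gene probe sets were measured and 18 passed the filter. Of these 18, 9 were called (50%), against 45.3% of all tested probe sets. Higher in Col-0 were 5 (27.8%, against 20.9%) and lower were 4, where 24.4% of all were lower. At least 1 log2 unit higher in Col-0 were 3 (16.7%), against 4.36% of all tested probe sets. Of these 3, 2 lie beside a single gene, so the counts rest on few loci.

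The 3 were AT1G26410, AT5G45510 and AT5G45480. AT1G26410, a further berberine bridge enzyme-like gene, had 548.3, 663.4 and 535.5 in Col-0 and 2.6, 3.5 and 15.5 in Ler (limma log2 4.73 ± 0.20 SE, adjusted p = 4e-11). It missed the rule because its means were 193.0 in line 12-1 and 164.8 in line 17-3. Like its 2 relatives it fell in the CLE3ox lines against Col-0 (limma log2 -1.63 ± 0.18, adjusted p = 0.00011). AT1G26420, 1 gene further on, had 177.6, 208.7 and 186.0 in Col-0 and 11.7, 3.0 and 13.7 in Ler, and did not pass the filter. Between them and AT1G26390 lies AT1G26400, which had 28.9, 11.0 and 6.4 in Col-0 and 14.2, 0.7 and 18.6 in Ler. The row of oxidase genes thus held 4 genes with a gap between the accessions and 1 with background signal in both.

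AT5G45510, a leucine-rich repeat gene beside AT5G45500, had 4422.4, 4107.7 and 5160.4 in Col-0 and 566.9, 606.2 and 566.2 in Ler (limma log2 2.94 ± 0.09 SE, adjusted p = 6.6e-13). AT5G45480 on the other side had 1112.1, 1081.5 and 1129.7 in Col-0 and 550.6, 468.4 and 462.4 in Ler (log2 1.14 ± 0.09, adjusted p = 5e-08). Both kept a clear signal in Ler, unlike AT5G45500.

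C1-domain genes also lay side by side. AT5G43030, next to AT5G43040, had 180.6, 157.8 and 185.2 in Col-0 and 2.0, 1.0 and 1.5 in Ler. AT4G01920, 2 genes from AT4G01910, had 164.9, 160.6 and 155.0 in Col-0 and 1.0, 0.8 and 7.2 in Ler. AT5G54050, 2 genes from AT5G54040, had 72.4, 71.8 and 110.4 in Col-0 and 18.1, 10.8 and 2.7 in Ler. None of these 3 passed the filter on mean log2 signal, so the main fit gave no test for them. A filter on mean signal, added after the data were seen, let in AT5G43030 and AT4G01920 through their Col-0-background values. They were then higher in Col-0 by log2 3.44 ± 0.15 SE and 3.23 ± 0.17 (limma adjusted p = 5.7e-11 and 4.3e-10). AT5G54050 was not tested there either. AT5G54030, which lies between AT5G54020 and AT5G54040, ran the other way, with 105.3, 96.2 and 118.3 in Col-0 and 211.8, 239.4 and 253.7 in Ler (limma log2 -1.03 ± 0.12 SE, adjusted p = 3.9e-06). A C1-domain gene with a higher signal in Ler thus sat between 2 with signals near background there.

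The other 2 neighbours called higher in Col-0 differed by less than 1 log2 unit. They were AT5G43020, 2 genes from AT5G43040 (limma log2 0.83 ± 0.12 SE, adjusted p = 2.8e-05), and AT2G01080 beside AT2G01090 (log2 0.69 ± 0.17, adjusted p = 0.0044). AT4G11190, the dirigent-like gene beside AT4G11210, was lower in Col-0 than in Ler (limma log2 -0.80 ± 0.10 SE, adjusted p = 1e-05). AT5G23840 beside AT5G23830 did not pass the test (log2 0.34 ± 0.14, adjusted p = 0.071), nor did AT3G25840 beside TPS-CIN (log2 -0.12 ± 0.11, adjusted p = 0.39).

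**Figure D4:**
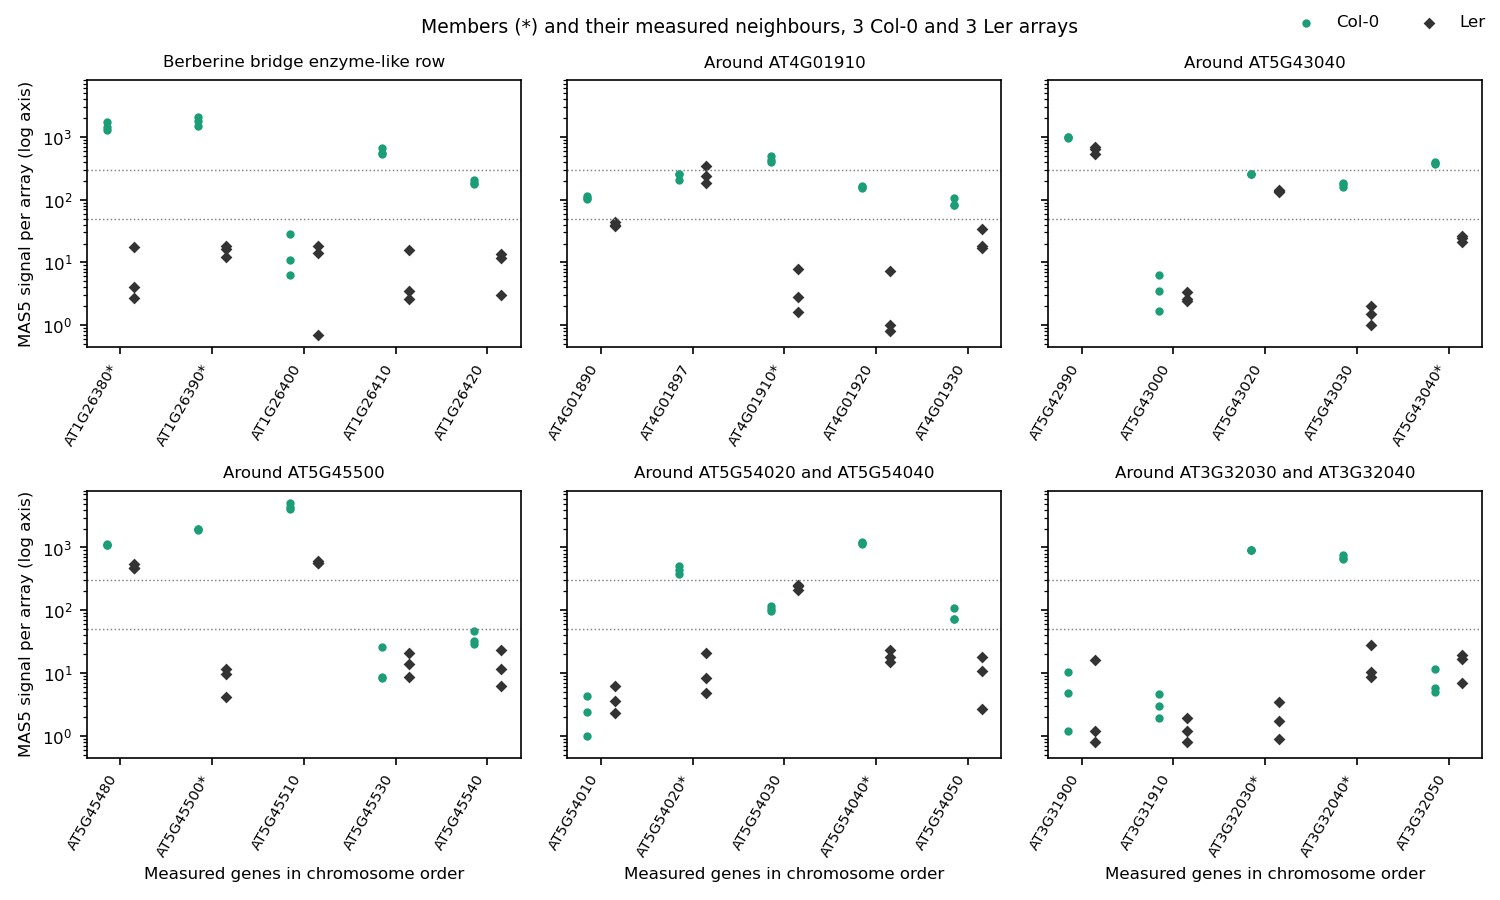
MAS5 signal (log axis) of chosen genes (asterisks) and measured genes around them in chromosome order, with 3 Col-0 points left of 3 Ler points for each gene and dotted lines at 50 and 300. Gaps between the accessions extend to AT1G26410, AT1G26420, AT4G01920 and AT5G43030, while AT1G26400 is low in both and AT5G54030 is higher in Ler.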

How the data were processed

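Root RNA of 13 samples in 5 groups was measured on ATH1 arrays. Values are linear intensity (MAS5 signal) as deposited by the authors. MAS5 is named in the submitters' processing notes, without a version. The authors' scaling set the trimmed mean (2% off either end) of all arrays to 500.0. No detection calls were used, and the number of arrays limits the precision.

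The rule was applied to raw means. For tests, log2(signal + 16) was taken, 64 control probe sets were dropped, and so was the 30% of the remainder with the lowest mean log2 value, which left 15922 of 22746 for testing. All 5 groups entered 1 limma model (version 3.58.1, R 4.3.3, eBayes with a trend). P-values were adjusted by Benjamini-Hochberg across the 15922, with calls at an adjusted p under 0.05. Fold changes are on the log2(signal + 16) scale, which understates changes of low signals. For CLE3ox, lines 12-1 and 17-3 were averaged before Col-0 was subtracted. Errors are standard errors from limma, or standard deviations (SD) for signals. On simulated data for CLE3ox against Col-0, over 15922 probe sets, 62% of changes of 0.5 and 97% of changes of 1 on the log2 scale were recovered.

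The members, the gene lists and the families were chosen with earlier results of these data known. Named with values on every array are the 12 single-gene members with the highest Col-0 mean, the 4 lowest in the Ler background, those beside a limit, those called in a tested comparison, and those of a family or of adjacent genes. Unnamed probe sets given singly were chosen after their values were seen. Probe sets were named through the platform's table and genes were ordered by the TAIR10.1 RefSeq annotation. The annotation gave no product names, so the family lists matched by symbol held 1 member, TPS-CIN, in the list of terpene synthases.

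Same-numbered arrays were checked for pairing by correlating deviations from their group means. They were not treated as pairs, since no label says that a number marks a shared batch. Alternatives covered the limits of the rule, the pseudocount, the filter, quantile normalization, median centring, no trend, array weights, a replicate block, the groups of the comparison alone and leaving out each array. A spike-in block and a filter on mean signal were added after the data were seen.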

Additional observations from a re-analysis of the deposited data

How the results depend on the processing

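Limits of 40 or 60 in the Ler background chose 22 or 33 probe sets, limits of 250 or 400 in the Col-0 background 35 or 20, and requiring every array to keep to the limits 21. For CLE3ox against Col-0, where 3 of the 29 were called, a pseudocount of 64 gave 8, array weights 5, the comparison's own groups 6 and leaving out the lowest 50% of probe sets 1. Leaving out arrays gave 3 to 6, with 6 without Ler array 2. Line 12-1, with 3 calls, gave 1 with a pseudocount of 1 and 1 with the lowest 50% left out, and 2 to 3 without an array. Line 17-3, with 6, gave 3 with each of these settings and 3 to 8 without an array. For clv1-15 against Ler, with 4, a pseudocount of 64, no filter and the lowest 50% left out gave 2 each, and the comparison's own groups gave 1. Leaving out arrays gave 2 to 4, with 2 without Ler array 1. For Col-0 against Ler, leaving out the lowest 50% called 7 of the 29, because the other 22 were then not tested. The same 22 were untested in every comparison under that setting, AT1G26380 and AT1G26390 among them. The lower counts it gave are therefore no loss of a call on retesting. No value changed sign past the threshold. Deviations of same-numbered arrays correlated at 0.24 and -0.18 between line 12-1 and Col-0, 0.18 and -0.19 between line 17-3 and Col-0, 0.31 and 0.31 between the lines, and 0.01 to 0.19 between clv1-15 and Ler. The replicate block gave 3 calls for CLE3ox, 3 for line 12-1, 4 for line 17-3, 0 between the lines and 3 for clv1-15, with 50% of neighbours called. Under this block AT4G11210 (adjusted p = 0.051) and 245928_s_at (0.053) were no longer called in line 17-3, nor 248979_at in clv1-15 (0.061). The spike-in block divided the arrays at a bioD signal of 3500. Array 1 of both lines and arrays 1 and 2 of Col-0 lay below it. Array 2 of both lines and array 3 of Col-0 lay above it. All clv1-15 and Ler arrays lay below it, so neither of these groups was divided. The spike-in block gave the main counts for the 29 in each comparison. The filter on mean signal tested 20 neighbours and called 11, with 5 at least 1 log2 unit higher in Col-0, against 4.59% of all tested probe sets. With no filter, 30 neighbours were tested and 14 called, with 6 at least 1 log2 unit higher, against 3.79%.

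Near background, signals of 0.8 to 60.4 carry little information on differences, and groups of 2 or 3 arrays limit every test. Poor probe match to Ler sequence and low transcript cannot be told apart with these arrays. No genome sequence of either accession was used here.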
